A study of Mus musculus with 146 samples.

Results

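Border macrophages are the macrophages that sit at the edges of the brain, in the meninges, around vessels and in the choroid plexus. They are long-lived, express Cx3cr1 as microglia do, and carry scavenger and endocytic receptors that take up proteins and lipids from blood and cerebrospinal fluid. Pf4, Lyve1, Folr2, Cbr2, Cd163, F13a1 and Mrc1 are commonly used to tell them from parenchymal microglia. These 7 genes were taken by symbol from the deposited table of the disease course, and 7 of 7 were among its 716 genes. None of the 7 was among the 204 genes of the table that compares Ifngr genotypes, so no value by Ifngr genotype is given.

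The libraries came from brains of Cx3cr1-CreER:RPL22-HA mice, F1 of C57BL/6 * SJL, in which tamoxifen switches on an HA-tagged ribosomal protein in cells that express Cx3cr1. Every group, including the non-immunized controls, carried this transgene pair and had 4 gavages of 5 mg tamoxifen at 4 to 6 weeks of age, per the labels' protocols. Immunized mice had relapsing-remitting experimental autoimmune encephalomyelitis (EAE), a model of multiple sclerosis, and were sampled at stages that the titles call initiation, max, remission, cure and relapse. Ribosome-bound mRNA was pulled down with anti-HA antibody, mouse IgG1 gave the background of the pull-down, and a part of the homogenate was kept as input. Each of the 3 kinds of library had 6 non-immunized, 4 initiation, 6 max, 8 remission, 5 cure and 4 relapse replicates, 33 per kind and 99 in all. The labels name the tagged cells microglia, but Cre driven by Cx3cr1 does not separate border macrophages from microglia. Recently infiltrated monocyte-derived cells can also express Cx3cr1, though the tag depends on tamoxifen, given here at 4 to 6 weeks of age. Whether such cells carried the tag was not tested. The labels give neither age at sampling nor sex, and do not say that replicates were separate animals, so p-values measure only the spread between these libraries. In such bulk libraries, fewer cells of a type and less RNA per cell cannot be told apart.

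Each value is a gene's read count after division by the size factor of its library. Over the 716 genes the libraries held 152704 to 880410 reads for anti-HA, 49902 to 159540 for input and 6775 to 162205 for IgG. The authors chose the 716 genes on these anti-HA libraries, so each count of calls below is a count within a chosen list, in which the median gene was higher than in non-immunized brains by 1.24 log2 at initiation, 1.19 at max, 0.80 at remission, 0.19 at cure and 0.44 at relapse. A call is an adjusted p below 0.05 from limma on log2(value + 1), with Benjamini-Hochberg adjustment over the 716 genes; fold changes carry standard errors. All inputs of cure, relapse and remission replicates 7 and 8 lay apart from the other 22 on a component holding 4.01% of the variance among inputs (-7.23 to -2.94 in these 11, -1.04 to 8.07 in the others). The labels name no batch, every cure and relapse library is on 1 side of this split, and for these 2 stages the split and the stage cannot be told apart except through the remission libraries, which lie on both sides.

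In anti-HA libraries the 7 genes fell into 3 courses on the deposited scale. Pf4, Lyve1, Folr2 and Cbr2 were lower than in non-immunized brains at max and stayed so through remission, cure and relapse. Cd163 and F13a1 were higher at initiation and max on the deposited scale, though not after quantile normalization or TMM scaling, and lower at cure. Mrc1 was called lower at max and at no other stage on the deposited scale. Under quantile normalization and TMM factors all but Cd163 and F13a1 were called lower at initiation, and all 7 at remission. In the authors' deposited table all 716 genes pass an adjusted p of 0.05 and a change of 1 log2 in at least 1 of 15 anti-HA comparisons. Mrc1 passes both only for max against non-immunized, and Folr2 and Cbr2 only for remission against non-immunized. Their calls in these comparisons are therefore not independent of the choice of the genes. At initiation 2 of the 7 genes were called higher and 1 lower, against 74.4% and 16.2% of all 716 genes. At max 2 were higher and 5 lower, against 71.5% and 17.2%. At remission 0 were higher and 4 lower, against 62.2% and 15.4% of all genes. At cure 0 were higher and 6 lower, against 24.4% and 17.0%, and at relapse 0 were higher and 4 lower, against 30.7% and 14.9%. With the side of the library split as a term, none of the 6 falls at cure was called, nor was that of Cbr2 at relapse. At an adjusted p below 0.05 the authors' deposited table holds 2 rises and 1 fall among the 7 for initiation, 1 and 3 for max, 0 and 4 for remission, 0 and 0 for cure, and 0 and 1 for relapse. The deposited adjusted p-values at relapse are 0.0884 for Lyve1, 0.0543 for Folr2 and 0.287 for Cbr2, and at max 0.134 for Folr2, 0.0572 for Cbr2 and 0.0641 for F13a1. The median fold change of the 7 genes was -0.40 log2 at initiation, -0.73 at max, -1.17 at remission, -1.53 at cure and -1.49 at relapse.

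**Figure D1:**
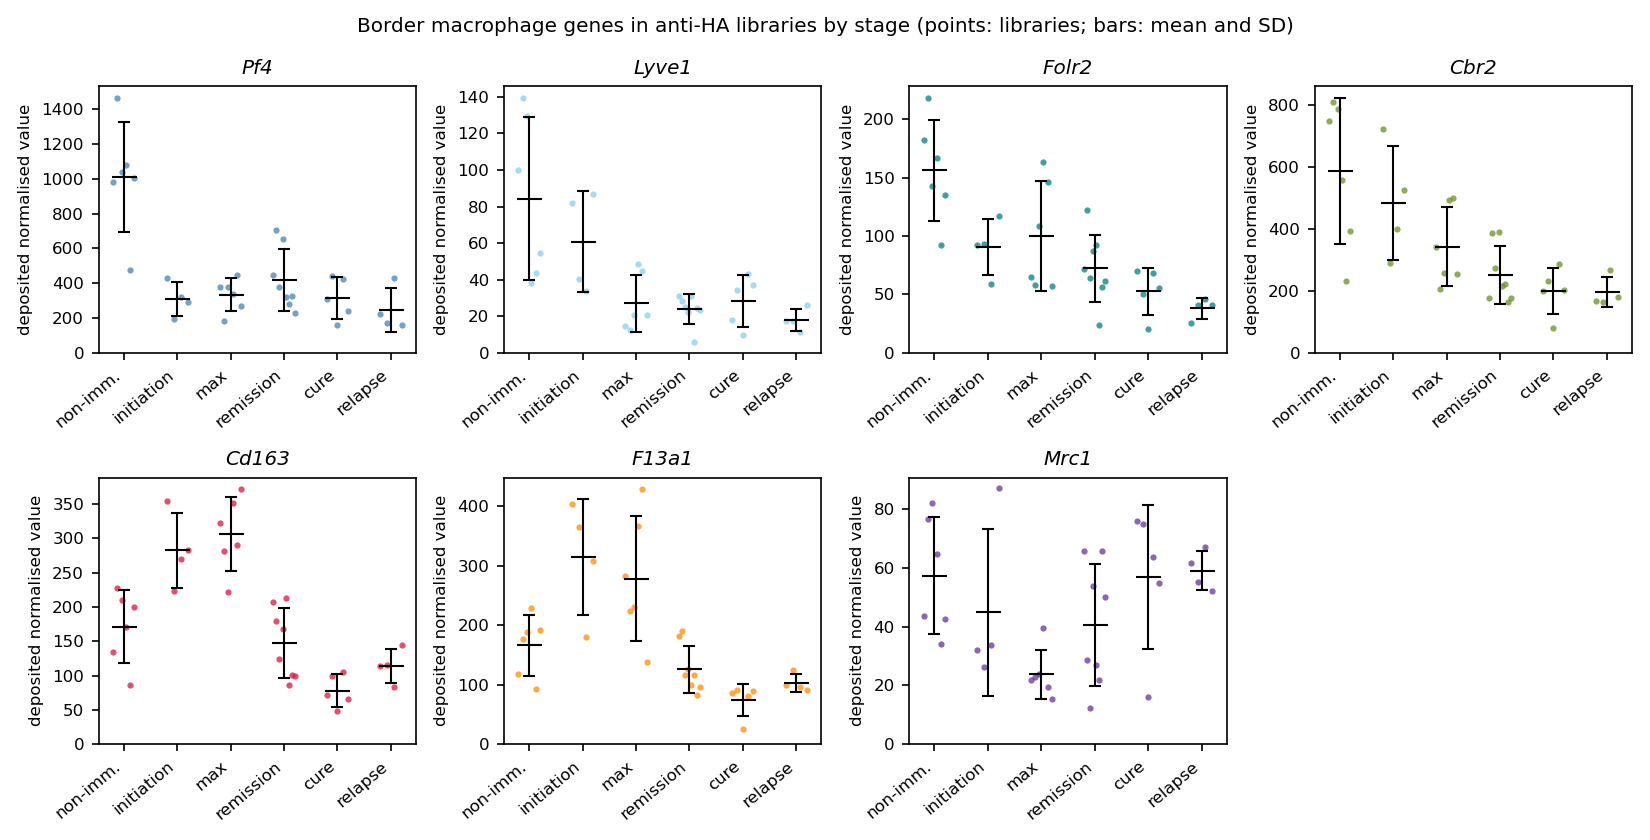
Deposited normalised values of the 7 genes in the 33 anti-HA libraries, 1 panel per gene, with the stage on the x axis; points are libraries and bars are mean and SD. Pf4 is at 708 or below in every library of an immunized stage against a non-immunized median of 1023, whereas on this scale, though not under quantile normalization or TMM factors, Cd163 and F13a1 are highest at initiation and max.

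The 7 genes lie on 6 chromosomes of mm10 (GRCm38): Pf4 at chr5:90772435-90773383 and Cd163 at chr6:124304656-124330527 and Mrc1 at chr2:14229392-14332057 on the plus strand, and Lyve1 at chr7:110850607-110863239, Folr2 at chr7:101839988-101857194, Cbr2 at chr11:120729489-120732114 and F13a1 at chr13:36867178-37050244 on the minus strand. RefSeq promoter windows (GRCm38.p6) were available for 6 of them, 8 windows in all, and the 250 bases upstream of each start were read. GAGGAA, the core recognised by the macrophage factor PU.1, searched on both strands, was in 4 of the 8 windows, those of Pf4, Cbr2, Mrc1 and 1 of the 2 of F13a1, against 23.3% of 32851 windows of all genes and 25.7% of 685 windows of genes in the table. TGACTCA, the AP-1 motif, was in 1 window of Folr2, against 4.46% of all windows. TGCTGAC (a MAF half-site), TTCNNNGAA (GAS), CACGTG (E-box) and the ISRE (TTTC, NN and TTTC in a row), on both strands, were in none of the 8, against 3.81%, 7.02%, 6.02% and 2.98% of all windows. Overlapping matches of different motifs were counted for each. A match is a description of the letters only. The windows of Pf4 and Cbr2, both lower at max, and of F13a1, which was not, are printed 5′ to 3′ on the strand of the gene, with GAGGAA or its reverse complement in capitals.
Pf4 (chr5:90772185-90772434, plus strand): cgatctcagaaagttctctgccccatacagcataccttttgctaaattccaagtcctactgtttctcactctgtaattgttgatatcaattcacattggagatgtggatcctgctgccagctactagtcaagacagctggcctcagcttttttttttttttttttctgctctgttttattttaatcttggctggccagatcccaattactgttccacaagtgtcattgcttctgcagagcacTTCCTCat
Cbr2 (chr11:120732022-120732271, minus strand): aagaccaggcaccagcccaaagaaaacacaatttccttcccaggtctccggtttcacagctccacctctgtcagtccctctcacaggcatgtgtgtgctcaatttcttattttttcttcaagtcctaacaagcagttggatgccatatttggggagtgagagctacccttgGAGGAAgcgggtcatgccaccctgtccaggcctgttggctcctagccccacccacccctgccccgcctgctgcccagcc
F13a1 (chr13:37050245-37050494, minus strand): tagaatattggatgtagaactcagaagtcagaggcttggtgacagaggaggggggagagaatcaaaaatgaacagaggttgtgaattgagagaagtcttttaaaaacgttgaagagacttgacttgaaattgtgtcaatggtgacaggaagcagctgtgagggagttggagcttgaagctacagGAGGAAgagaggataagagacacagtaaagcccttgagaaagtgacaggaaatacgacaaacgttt
In Pf4 the capitals begin 8 bases before the start, in Cbr2 79 and in F13a1 66. Mrc1 has 3 matches, beginning 180, 167 and 35 bases before its start.

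Pf4 encodes the chemokine CXCL4, which platelets store and which brain border macrophages also transcribe. Per kilobase of exon it was the most abundant of the 7 in non-immunized anti-HA libraries, at 1398 ± 439, ahead of Cbr2 at 443 ± 178 and Folr2 at 101.1 ± 28.0; Cd163, Lyve1 and F13a1 lay between 24.6 and 31.4 and Mrc1 was lowest at 8.98 ± 3.12 (SD, n = 6). The deposited value of Pf4 had a lowest, median and highest of 476, 1023 and 1466 in non-immunized brains. It was 429, 194, 322 and 291 in the 4 initiation libraries, and 184, 357 and 449 (lowest, median, highest) at max. It was 229.8, 351 and 708 at remission, 309.5, 444, 162, 426 and 239 in the 5 cure libraries, and 222, 169.5, 431 and 160.4 in the 4 relapse libraries. Every initiation, max, cure and relapse library lay below the lowest non-immunized library, while remission overlapped it. The fold changes were -1.68 ± 0.35 at initiation (adjusted p = 9.18e-05), -1.58 ± 0.31 at max (4.07e-05), -1.30 ± 0.29 at remission (0.000339), -1.69 ± 0.33 at cure (0.000116) and -2.08 ± 0.35 at relapse (1.85e-05). On the deposited scale Pf4 was the only one of the 7 called at all 5 stages, and it kept each call without any single library. With the side of the library split as a term, the fold change at cure was -1.01 and no longer called (adjusted p = 0.122). The authors' deposited table gives -1.07 at cure with an adjusted p of 0.0955, and -1.43 at relapse with 0.00924.

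Lyve1 encodes a hyaluronan receptor shared with lymphatic endothelium. Its value had a lowest, median and highest of 38.1, 77.5 and 139 in non-immunized brains, where 3 libraries were at 100.3 or above and 3 at 54.7 or below. It was 81.8, 40.5, 33.8 and 86.9 at initiation, 12.4, 20.8 and 48.6 (lowest, median, highest) at max, and 5.64, 24.6 and 31.2 at remission. At cure it was 17.6, 34.2, 9.82, 43.3 and 37.0, and at relapse 17.2, 17.4, 11.2 and 26.0. The remission and relapse libraries lay below every non-immunized library; initiation, max and cure overlapped them. On the deposited scale Lyve1 was not called at initiation (-0.40 ± 0.46, adjusted p = 0.402), but it was called lower there under quantile normalization and TMM factors. The later fold changes were -1.61 ± 0.41 at max (0.000741), -1.72 ± 0.39 at remission (0.000322), -1.53 ± 0.43 at cure (0.00474) and -2.04 ± 0.46 at relapse (0.000638).

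Folr2 encodes folate receptor beta. It had a lowest, median and highest value of 92.2, 155 and 219 in non-immunized brains. It was 92.5, 93.1, 58.6 and 117 at initiation, 57.2, 86.9 and 164 (lowest, median, highest) at max, and 24.2, 67.6 and 122 at remission. At cure it was 69.8, 50.1, 20.0, 67.9 and 55.8, and at relapse 25.2, 40.7, 45.8 and 40.6. Cure and relapse lay below every non-immunized library and the other stages overlapped. The fold change at initiation, -0.78 ± 0.37, just missed the threshold (adjusted p = 0.05005), but Folr2 was called lower there under quantile normalization and TMM factors. Folr2 fell by 0.73 ± 0.33 log2 at max (0.0422), a call lost without any of 4 non-immunized or 3 max libraries (fold changes -0.74 to -0.59, adjusted p 0.0522 to 0.105). The later fold changes were -1.17 ± 0.31 at remission (0.00156), -1.62 ± 0.35 at cure (0.000393) and -1.99 ± 0.37 at relapse (7.16e-05).

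Cbr2 encodes a carbonyl reductase. It had a lowest, median and highest value of 232, 654 and 809.7 in non-immunized brains. It was 722, 292, 399 and 525 at initiation, 207, 299.8 and 499 (lowest, median, highest) at max, and 164, 219.7 and 391 at remission. At cure it was 199, 231, 80.9, 286 and 203, and at relapse 168, 165, 267 and 180.1. Non-immunized replicate 5, at 232, was low enough for every stage to overlap with the non-immunized group. On the deposited scale Cbr2 was not called at initiation (-0.23 ± 0.36, adjusted p = 0.535), but it was called lower there under quantile normalization and TMM factors. It fell by 0.73 ± 0.32 log2 at max (0.0353), a call lost without any of 7 libraries (fold changes -0.72 to -0.60). The later fold changes were -1.18 ± 0.30 at remission (0.00117), -1.54 ± 0.34 at cure (0.000517) and -1.49 ± 0.36 at relapse (0.00129).

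Cd163 encodes the scavenger receptor for haptoglobin-haemoglobin complexes. It had a lowest, median and highest value of 86.1, 185 and 228 in non-immunized brains. It was 354, 223, 270.3 and 283 at initiation, 221, 307 and 373 (lowest, median, highest) at max, and 86.2, 146 and 213 at remission. At cure it was 71.3, 100.2, 47.7, 105 and 66.0, and at relapse 114, 115, 82.7 and 144. The initiation and max libraries overlapped the highest non-immunized library only narrowly, and at cure 3 of 5 libraries lay below the lowest. On the deposited scale Cd163 rose by 0.77 ± 0.29 log2 at initiation (adjusted p = 0.0134) and 0.89 ± 0.26 at max (0.00211), but with quantile normalization the values were -0.14 and -0.11, and with TMM factors -0.36 and -0.21, none of them called. The call at initiation was also lost without initiation replicate 1 (0.65, adjusted p = 0.0508). On the deposited scale Cd163 was not called at remission (-0.23 ± 0.24, adjusted p = 0.375) or relapse (-0.54 ± 0.29, 0.124) and fell by 1.11 ± 0.27 log2 at cure (0.00121). With quantile normalization and TMM factors it was called lower at remission.

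F13a1 encodes the A subunit of coagulation factor XIII, a transglutaminase also found in platelets and monocytes. It had a lowest, median and highest value of 92.2, 183 and 229 in non-immunized brains. It was 404, 364, 180.2 and 308 at initiation, 139, 256 and 428 (lowest, median, highest) at max, and 82.5, 117 and 190.2 at remission. At cure it was 85.3, 90.7, 26.1, 81.5 and 89.3, and at relapse 99.5, 124, 96.2 and 91.3. The cure libraries lay below every non-immunized library and the other stages overlapped. On the deposited scale F13a1 rose by 0.92 ± 0.34 log2 at initiation (adjusted p = 0.0122) and 0.71 ± 0.30 at max (0.0273), but with quantile normalization the values were -0.03 and -0.21, and with TMM factors -0.16 and -0.33, none of them called. The call at max was lost without non-immunized replicates 1 or 5 or max replicates 4 or 5 (0.56 to 0.63, adjusted p 0.0634 to 0.0859). On the deposited scale F13a1 was not called at remission (-0.39 ± 0.28, adjusted p = 0.199) or relapse (-0.63 ± 0.34, 0.125) and fell by 1.20 ± 0.31 log2 at cure (0.00251). With quantile normalization and TMM factors it was called lower at remission.

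Mrc1 encodes the mannose receptor CD206, a classical marker of perivascular macrophages. It had a lowest, median and highest value of 34.0, 54.1 and 82.1 in non-immunized brains. It was 32.1, 26.3, 33.8 and 86.9 at initiation, 15.4, 22.3 and 39.6 (lowest, median, highest) at max, and 12.4, 39.4 and 65.8 at remission. At cure it was 75.7, 74.7, 15.9, 63.6 and 54.8, and at relapse 61.8, 55.2, 67.1 and 52.0. Mrc1 fell by 1.21 ± 0.38 log2 at max (adjusted p = 0.00371), where 5 of 6 libraries lay below the lowest non-immunized library. Max against non-immunized is also the only comparison in which Mrc1 passes both thresholds in the authors' deposited table. It was not called at initiation (-0.44 ± 0.42, 0.312), remission (-0.60 ± 0.35, 0.113), cure (-0.11 ± 0.39, 0.852) or relapse (0.11 ± 0.42, 0.861), where the authors' deposited table gives -0.49. Without remission replicates 7 and 8 the value at remission was -0.83 and called (0.0389). Mrc1 was also called lower at initiation and remission under quantile normalization and TMM factors. The microRNA gene Mir511 lies inside Mrc1, and whether counting used strand is not given in the sources used here; the same holds for antisense genes overlapping Folr2 and F13a1.

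**Figure D2:**
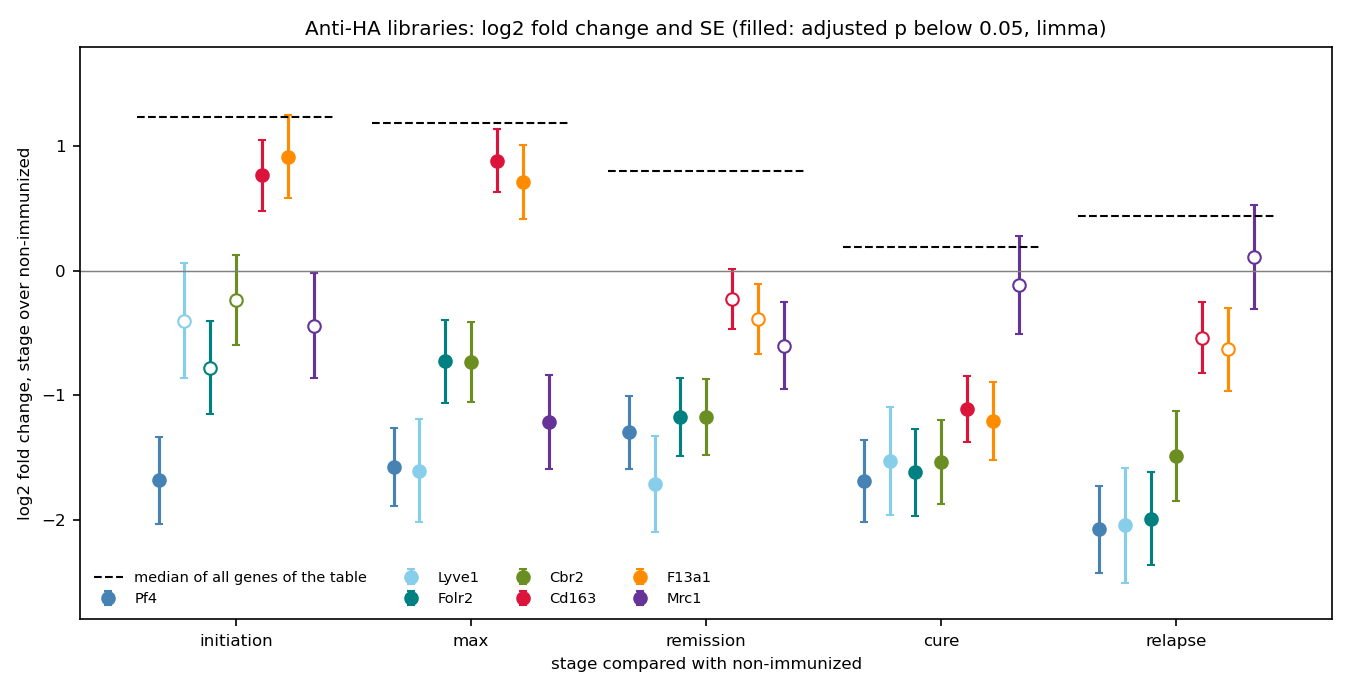
Log2 fold changes (y axis) of the 7 genes in anti-HA libraries at each stage over non-immunized (x axis), with standard errors; filled points have an adjusted p below 0.05 and dashed lines mark the median of all 716 genes. All 7 genes lie below the dashed line at every stage, including Cd163 and F13a1 at initiation and max.

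Ordered by mean anti-HA value, Pf4, Lyve1, Folr2 and Cbr2 had the non-immunized group highest and the relapse group lowest. Cd163 was highest at max (307 ± 54.4) and F13a1 at initiation (314 ± 97.7), and both were lowest at cure (78.1 ± 24.2 and 74.6 ± 27.3). Mrc1 was highest at relapse (59.0 ± 6.74) and lowest at max (23.8 ± 8.29). In these orders the ranges of neighbouring groups overlapped throughout, except F13a1 at relapse (91.3 to 124) against cure (26.1 to 90.7). Stages were also compared directly. Cd163 fell by 1.11 ± 0.24 log2 at remission over max (adjusted p = 0.00348) and F13a1 by 1.10 ± 0.28 (0.0125), 2 of 7 genes against 16.6% of all genes lower; none of the 7 was higher, against 4.33%. At cure over remission Cd163 fell by 0.88 ± 0.25 (0.0142) and F13a1 by 0.82 ± 0.30 (0.0339), 2 of 7 against 33.7%, and none was higher, against 0.419%; without cure replicate 3 the value of F13a1 was -0.48 (0.231). At relapse over max 3 of 7 fell, against 49.2% lower, with -1.43 ± 0.29 for Cd163 (0.000606), -1.35 ± 0.34 for F13a1 (0.00197) and -1.27 ± 0.37 for Folr2 (0.00634), whereas Mrc1 rose by 1.32 ± 0.42 (0.0101), 1 of 7 against 4.33% higher. The 4 relapse libraries of Mrc1 lay above every max library, and those of Cd163, F13a1 and Folr2 below. With the library side as a term, none of the calls of relapse over max or cure over remission held. Under quantile normalization and TMM factors Mrc1 kept its call at relapse over max and Cd163 and F13a1 kept theirs at remission over max, and the other 5 falls were not called. F13a1 at remission over max was also not called without remission replicates 7 and 8 (-0.95, adjusted p = 0.0724), with the replicate number as a block (-0.95, 0.075) or the library side as a term (-0.95, 0.0646). The authors' deposited table has adjusted p-values of 0.00686 for Cd163 and 0.0392 for F13a1 at remission over max. At relapse over max it has 0.536 for Mrc1, 0.207 for Cd163, 0.325 for F13a1 and 0.356 for Folr2, and at cure over remission 0.518 for Cd163 and 0.771 for F13a1. None of the 7 was called by limma at max over initiation (1 at an unadjusted p below 0.05), where 7.26% of all genes were higher and 2.37% lower. None was called at relapse over remission (2 at an unadjusted p below 0.05; 0.279% of all genes higher) or relapse over cure (0). In all 3 of these comparisons edgeR on recovered reads with the deposited size factors called 0 of the 7. Under quantile normalization and TMM factors, a fall between stages was called that the main fit did not call.

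A ratio of 2 genes within a library depends little on the scaling of that library. Ratios were taken on values + 1; without the pseudocount, where the scaling cancels, the same 15 of 30 passed and no difference moved by more than 0.0579 log2. Relative to Pf4, 15 of 30 ratios (6 genes, 5 stages) were higher than in non-immunized brains at an adjusted p below 0.05 in a two-sided exact permutation test over libraries, adjusted over the 30, and no ratio was lower at that level. Pf4 fell at all 5 stages, while the median of all 716 genes rose, by 1.24 log2 at initiation and 1.19 at max. A gain on Pf4 was thus the usual direction in this table. The share of all genes with such a gain was not computed. The log2 ratio of Cd163 to Pf4 averaged -0.08 ± 0.57 at max and -2.55 ± 0.22 in non-immunized brains (SD, n = 6 each), a difference of 2.46 with no overlap (exact p = 0.00216, adjusted 0.0162). That of F13a1 to Pf4 averaged -0.29 ± 0.48 at max and -2.59 ± 0.36 in non-immunized brains (n = 6 each), a difference of 2.29 with no overlap (exact p = 0.00216, adjusted 0.0162). At initiation the differences were 2.45 for Cd163 and 2.60 for F13a1 (exact p = 0.00952 each, the smallest that 4 against 6 libraries allow; adjusted 0.022). At remission they were 1.07 for Cd163 and 0.91 for F13a1 (adjusted 0.0162 each).

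Cbr2 also gained on Pf4, by 1.45 at initiation and 0.85 at max (adjusted exact permutation p = 0.022 each), and Folr2 by 0.85 at max (0.022). For Folr2 at initiation the difference was 0.91 (adjusted 0.0504), and for Lyve1 at max it was -0.03 (0.971). The ratio of Mrc1 to Pf4 rose by 1.58 at cure (0.0216) and 2.19 at relapse (0.022), where it averaged -1.93 ± 0.50 in the 4 relapse libraries and -4.11 ± 0.36 in the 6 non-immunized ones without overlap. At initiation Mrc1 and Lyve1 gained 1.24 and 1.28 on Pf4 (adjusted 0.0381 each in the exact test), but these calls were lost without any 1 of 9 and of 8 of the 10 libraries (adjusted p 0.0510 to 0.0840 for Mrc1 and 0.0560 to 0.0840 for Lyve1). The calls of Cbr2, Cd163 and F13a1 at initiation were lost without initiation replicate 1, 2 or 4, when 3 libraries remained, though the differences of Cd163 and F13a1 were then 2.31 to 2.64. The ratios of Lyve1, Folr2 and Cbr2 to Pf4 at remission and cure did not pass the test (differences -0.42 to 0.16).

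**Figure D3:**
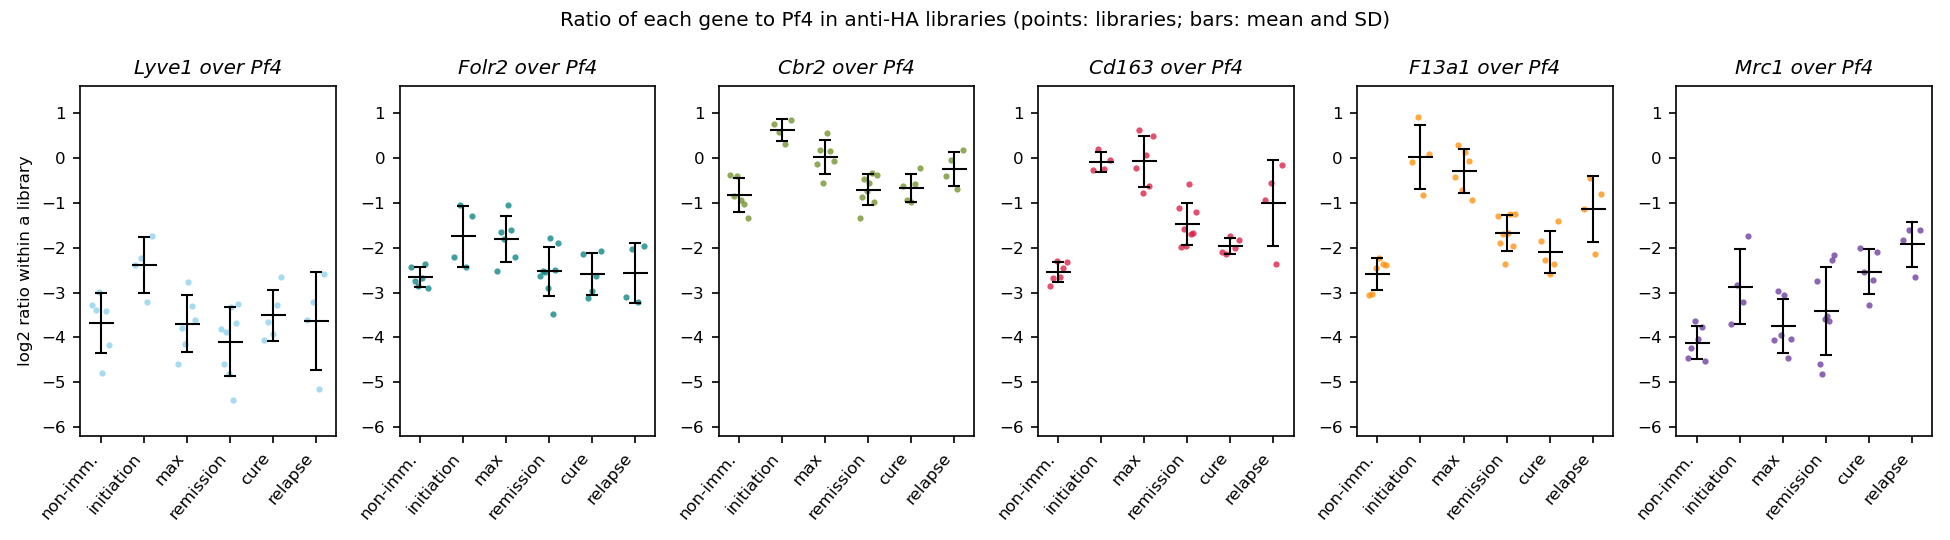
Log2 ratio of each other gene to Pf4 within the same anti-HA library (y axis) by stage (x axis); points are libraries and bars are mean and SD. The ratios of Cd163 and F13a1 at max sit wholly above those of the non-immunized libraries, and the ratio of Mrc1 is highest at relapse. Pf4, the denominator, is itself lower at every immunized stage.

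By stage mean, anti-HA libraries held more of each gene than the background of the pull-down or the homogenate, least so for Mrc1 at max. All 7 genes were called higher in anti-HA than in input at each of the 6 stages, by 2.17 to 5.86 log2, and higher in anti-HA than in IgG, by 1.93 to 7.27, where the median of all 716 genes was 1.95 to 2.64 and 2.18 to 2.77. From non-immunized to relapse, 82.1%, 94.1%, 93.4%, 95.7%, 83.4% and 85.6% of all genes were likewise higher over input, and 83.0%, 95.4%, 95.3%, 96.2%, 87.4% and 88.1% over IgG. In non-immunized brains Pf4 led both, at 5.86 ± 0.33 over input and 7.27 over IgG. Mrc1 at max had the lowest of both, 2.17 ± 0.44 over input and 1.93 over IgG, where the medians of all genes were 2.31 and 2.57. Its lowest anti-HA library lay below the highest IgG library at max (15.4 against 16.8) and at remission (12.4 against 13.6). At max Mrc1 was below 0 under quantile normalization (-0.17 and -0.66) and TMM factors (-0.05 and -0.65). The other 2 cases below 0 under these scalings were Mrc1 over IgG at initiation, at -0.84 and -0.54. The IgG mean was 2.15% of the anti-HA mean for Pf4 at max and 0.594% in non-immunized brains; for F13a1 it was 14.9% at max and 2.71% in non-immunized brains, and for Mrc1 27.6% at max and 6.63% in non-immunized brains.

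At initiation 2 of 7 genes were called higher in input, against 39.2% of all genes, and at max 3 of 7, against 53.4%; none was called lower, against 0.279% and 1.82%. F13a1 was 17.3, 22.6, 18.5 and 17.0 in the 4 initiation inputs, against a lowest, median and highest of 2.86, 5.23 and 8.08 in the 6 non-immunized inputs, a rise of 1.75 ± 0.46 log2 (adjusted p = 0.0025). At max it was 11.7, 32.6 and 41.7 (lowest, median, highest), a rise of 2.27 ± 0.41 (1.86e-05), and no initiation or max input overlapped the non-immunized ones. Cbr2 was 19.7, 30.1, 34.9 and 37.4 at initiation and 18.5, 22.0 and 32.6 (lowest, median, highest) at max, against 7.27, 11.9 and 15.0 in non-immunized inputs, also without overlap. It rose by 1.33 ± 0.35 log2 at initiation (0.00227) and 1.00 ± 0.31 at max (0.00649), though with quantile normalization these values were 0.42 and -0.18, and with TMM factors 0.83 and 0.33, none of them called. Cd163 was 5.84, 13.5 and 17.1 (lowest, median, highest) in max inputs against 0.808, 4.35 and 7.76 in non-immunized inputs, and rose by 1.61 ± 0.35 (0.000247). These values are 12 to 19 reads at max and 1 to 8 in non-immunized inputs, where F13a1 had 3 to 10. Quantile normalization, which moved the median of all genes in inputs by -0.92 log2 at initiation and -1.18 at max, left the rise of F13a1 at max called, but not Cd163 at max (0.13, adjusted p = 0.717) or F13a1 at initiation (0.62, 0.218). With TMM factors Cd163 at max and F13a1 at both stages were called. Pf4 lay between 8.32 and 26.9 in all 33 inputs, and no stage was called. Lyve1, Folr2 and Mrc1 had at most 14 reads in an input library and 0 in some, too few for their changes to be followed there. None of the 7 was called in inputs of remission, cure or relapse by limma (0, 0 and 1 at an unadjusted p below 0.05), where 33.9%, 24.4% and 26.8% of all genes were higher and 0%, 0.838% and 1.12% lower; edgeR on recovered reads called 1 at cure.

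IgG libraries shared part of this course. F13a1 was 17.3, 47.2, 14.8 and 25.0 in IgG at initiation and 21.4, 46.3 and 62.7 (lowest, median, highest) at max, against 2.74, 3.83 and 8.91 in non-immunized IgG libraries. It rose by 2.25 ± 0.51 log2 at initiation (adjusted p = 0.00105) and 2.94 ± 0.46 at max (4.59e-06) without overlap. The non-immunized IgG libraries held 1 to 9 reads of F13a1. Cd163 rose by 1.51 ± 0.45 at max (0.00645) and by 1.40 ± 0.50 at initiation (0.0305), the second losing its call without 1 of 3 libraries. With F13a1 and Cd163, 2 of 7 genes were called higher in IgG at initiation and at max, against 30.7% and 45.3% of all genes, and none lower, against 0.419% and 0.698%. F13a1 kept both calls under the 2 other scalings, whereas Cd163 was not called at either stage under quantile normalization (0.25 at initiation, 0.19 at max) or TMM factors (0.68, 0.76), nor at initiation with a pseudocount of 0.1, edgeR with deposited size factors or the replicate number as a block. Cd163 and Pf4 had a median of 4 reads in an IgG library, and the filter on mean values left Cd163 out. Pf4 was called lower in IgG at relapse (-1.59 ± 0.47, adjusted p = 0.0301), 1 of 7 against 0.838% (8.52% were higher), on values of 1.47, 2.92, 0 and 0.864; these are 1, 2, 0 and 1 reads. The call was lost without any of 4 libraries, and with a pseudocount of 10 (-0.47), edgeR with deposited size factors (-1.78) or the library side as a term (-1.06). None of the 7 was called in IgG at remission or cure (0 and 1 at an unadjusted p below 0.05; edgeR on recovered reads called 0), where 22.6% and 6.28% of all genes were higher.

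**Figure D4:**
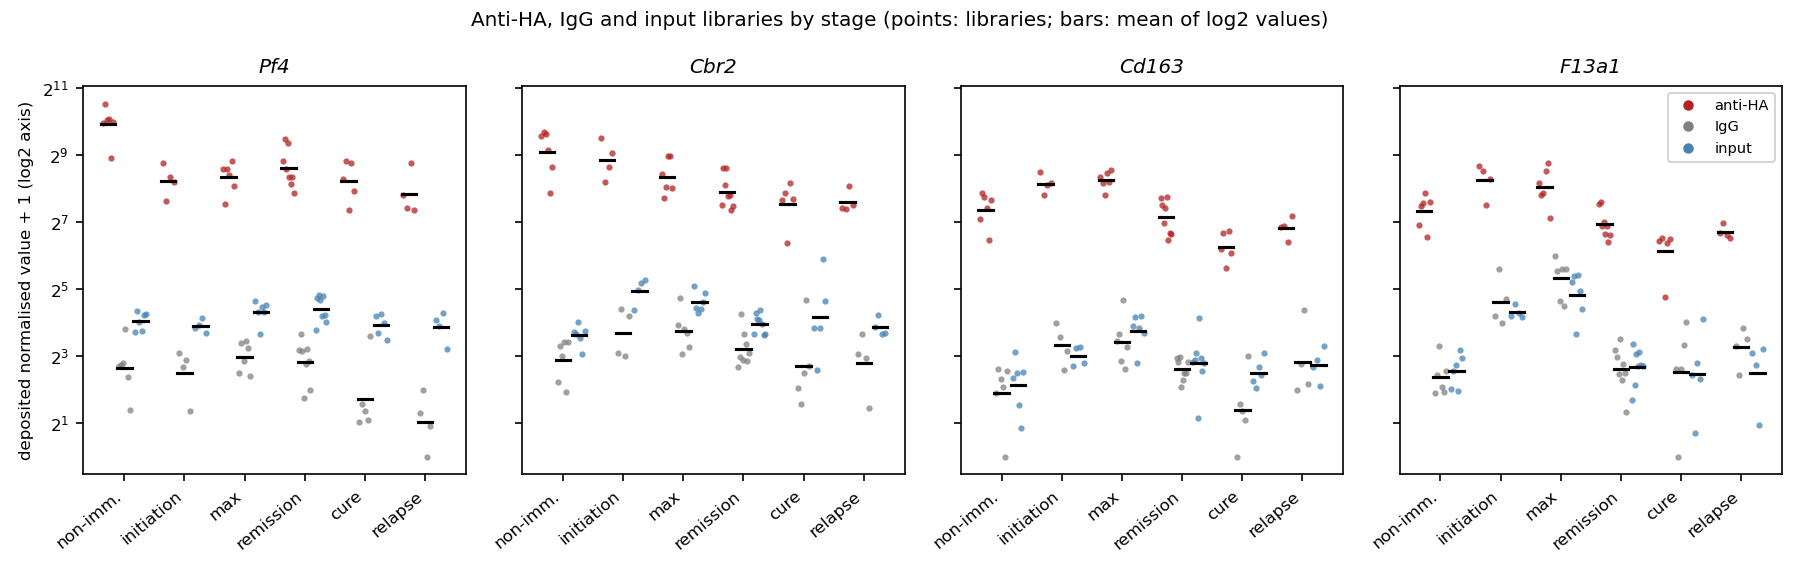
Deposited normalised values + 1 on a log2 axis for Pf4, Cbr2, Cd163 and F13a1 in anti-HA, IgG and input libraries by stage; points are libraries and bars are means of the log2 values. On this scale F13a1 is higher at initiation and max than in non-immunized brains in all 3 kinds of library, in anti-HA not after quantile normalization or TMM scaling, whereas Pf4 is lower in anti-HA and between 8.32 and 26.9 in input throughout.

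The excess of anti-HA over input was smaller than in non-immunized brains for 16 of 35 gene and stage pairs (9 with a pseudocount of 0.1), and larger for none. For Pf4 the change in this excess was -1.53 ± 0.52 log2 at initiation (adjusted p = 0.0132), -1.85 ± 0.47 at max (0.000816), -1.65 ± 0.44 at remission (0.00269), -1.56 ± 0.49 at cure (0.0178) and -1.89 ± 0.52 at relapse (0.0073). For Cbr2 it was -1.56 ± 0.57 at initiation (0.0216), -1.73 ± 0.51 at max (0.00439), -1.52 ± 0.48 at remission (0.0122), -2.08 ± 0.54 at cure (0.00401) and -1.74 ± 0.57 at relapse (0.0225). At max it was also -1.56 ± 0.57 for F13a1 (0.0197), -1.83 ± 0.64 for Lyve1 (0.0147) and -2.17 ± 0.62 for Mrc1 (0.00337), which made 5 of 7 genes against 22.6% of all genes. Lyve1 had only 0 to 3 reads in non-immunized and 0 to 5 in max inputs, and Mrc1 0 to 5 and 2 to 12. Their part of this count thus rests on inputs with too few reads to follow a change. At initiation, remission, cure and relapse the count was 2, 3, 3 and 3 of the 7, against 17.5%, 15.4%, 14.8% and 14.2% of all genes. The excess was larger for 31.1%, 24.3%, 19.6%, 3.63% and 6.15% of all genes from initiation to relapse. Against IgG the excess was smaller for 9 of 35 pairs and larger for none; the 9 became 5 with a pseudocount of 0.1, 25 with a pseudocount of 10 and 14 with the replicate number as a block. At max these were Pf4, Cbr2, F13a1 and Mrc1, 4 of 7 against 19.1% of all genes, with -2.23 ± 0.57 for F13a1 (0.00107). Each of these genes had at most 14 reads in a non-immunized IgG library. At initiation, remission, cure and relapse there were 2, 2, 0 and 1, against 15.2%, 11.9%, 11.5% and 9.78%, while 32.5%, 26.1%, 18.6%, 6.56% and 8.66% of all genes had a larger excess from initiation to relapse. All these comparisons share the non-immunized libraries.

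Of 39 further border macrophage genes listed, 14 were in the table. Their courses were mixed: at initiation 5 rose and 7 fell, at max 5 and 6, at remission 5 and 6, at cure 2 and 6, and at relapse 4 and 6, with medians of -1.09, -0.33, -0.62, -0.84 and -1.14 log2. From initiation through relapse, 74.4%, 71.5%, 62.2%, 24.4% and 30.7% of all 716 genes were higher. The shares lower were 16.2%, 17.2%, 15.4%, 17.0% and 14.9%. Marco, a scavenger receptor, rose by 5.64 ± 0.48 log2 at max (adjusted p = 1.65e-11) and Ms4a6c, of the membrane-spanning 4-domain family, by 2.94 ± 0.33 (3.24e-09), while Cd209a, a C-type lectin, fell by 4.04 ± 0.47 (8.56e-09). Of 20 homeostatic microglia genes 13 were in the table, and 13, 13, 11, 9 and 9 of them were lower from initiation through relapse; their summed value ranged from 36213 to 76862 at max and from 97714 to 209400 in non-immunized anti-HA libraries. Of 20 monocyte genes 4 were in the table (Itgal, Lyz2, Ifitm3 and Ms4a4c, the defining Ly6c2 and Ccr2 not among them). All 4 were higher at initiation, max and remission, stages at which most genes of the table were higher, and 3 of 4 at cure and at relapse. Their sum ranged from 6902 to 14634 at max and from 1883 to 2974 in non-immunized anti-HA libraries. In inputs it ranged from 1843 to 5578 at max and from 47.7 to 91.1 in non-immunized brains. Whether these 4 genes tracked monocytes, and the part of monocytes in the courses of F13a1 and Cd163, was not tested.

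For Pf4, the platelet genes Gp9, also listed for homeostatic microglia, and Itgb3 were the only 2 of 12 further platelet genes in the table, and both were lower at every stage. Their sum ranged from 53.8 to 258.5 at max and from 457 to 1000.5 in non-immunized anti-HA libraries, and their part in the course of Pf4 was not tested. For Lyve1, none of 6 further lymphatic endothelial genes was in the table. No fibroblast, T cell, B cell, astrocyte or oligodendrocyte gene listed was in it either. Mmp9 was the sole neutrophil gene of 13, at -1.37 ± 0.28 log2 at max (adjusted p = 4.8e-05), and Pecam1 the sole vascular gene of 8, at -0.74 ± 0.22 (0.00274). Of the dendritic cell genes Itgax was higher at max, by 2.97 ± 0.34 (6.36e-09), and Cd209a lower, and the neuronal gene Pdyn was higher, by 2.46 ± 0.36 (4.03e-07). Of 2 further scavenger receptors in the table, Marco and Siglec1, both were higher at max, Siglec1 by 2.40 ± 0.36 (6.99e-07).

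Over the 33 anti-HA libraries the log2 values of Pf4, Lyve1, Folr2 and Cbr2 correlated with each other at Pearson's r of 0.61 to 0.82, and Cd163 with F13a1 at 0.85. Between these 2 sets r ranged from 0.21 (Pf4 with Cd163) to 0.68 (Cbr2 with F13a1), so the 2 sets were not sharply apart. Cd163 and Mrc1 had the lowest r, -0.21. When each library was taken as its deviation from its stage mean, all 21 pairs were positive, at 0.35 to 0.81, with Pf4 and Cbr2 highest. These are descriptions of points that share libraries and size factors, given without a test. The 3 genes of the table outside the 7 with the highest r were Rgs10, Cd209f and Selplg for Pf4 (0.92, 0.91 and 0.90), Tm6sf1, Rnase4 and Tpsb2 for Lyve1 (0.73, 0.70 and 0.68), and Fcna, Fam110a and Ccnd1 for Folr2 (0.81, 0.79 and 0.78). For Cbr2 they were Cryl1, Fam110a and Htra3 (0.83, 0.81 and 0.80), for Cd163 Snrpd3, Dctpp1 and Trex1 (0.83, 0.81 and 0.80), for F13a1 Fcna, Tagln2 and Dctpp1 (0.81, 0.81 and 0.81), and for Mrc1 P2ry12, Rasgrp3 and Sqrdl (0.79, 0.77 and 0.75). Selplg and P2ry12 are among the homeostatic microglia genes listed.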

How the data were processed

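RNA sequencing libraries of anti-HA, IgG and input samples of 6 stages were grouped by their titles. The deposited values are of the kind signal, read counts over a library's size factor; no label or header names the unit, which comes from the values themselves. In each column 100% of values were whole multiples of 1 step (tolerance 0.01 of a step, plus 1e-07 of the multiple), taken as 1 read. The build is mm10, per the submitters' processing notes; aligner and counter: not given in the sources used here. The log2 fold changes and adjusted p-values in the authors' deposited table were made by the authors, per the file headers, as was the clusters score.

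Each comparison was a two-sided limma 3.58.1 fit (R 4.3.3) of log2(value + 1), with all stages of a kind of library sharing the spread (all 3 kinds for anti-HA against input or IgG). The pseudocount of 1 makes fold changes of low values too small. The planned test for raw counts, edgeR, was not used as the main one because the values are normalized; edgeR 4.0.16 on recovered reads is an alternative. The fit was also run on simulated reads with as many rises as falls. Most genes of this table were higher at initiation, max and remission, so that run cannot speak to the scaling. Ratios, of values + 1, used exact permutation tests (scipy 1.17.1). Gene coordinates are from GENCODE release M21 and promoter windows from RefSeq.

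The 7 genes and all lists were chosen with earlier results of these data known. The 7 are named in every comparison, with the 3 genes most correlated to each and up to 3 genes a marker list by smallest p in anti-HA at max. Low counts limit Lyve1, Folr2 and Mrc1 in input and IgG, and Pf4 and Cd163 in IgG, at medians of 0 to 4 reads a library. Cd163 and F13a1 were also low in non-immunized inputs, at 1 to 8 and 3 to 10 reads. F13a1 had 1 to 9 reads in non-immunized IgG libraries. Comparisons by Ifngr genotype were planned and are not made, since that table holds none of the 7.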

Additional observations from a re-analysis of the deposited data

Results flagged for a closer look

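Of 126 sets of libraries (7 genes, 6 stages, 3 kinds of library), 15 held a library whose gap to its nearest neighbour was large for the range of its group; chance flags about 1 in 20 groups. In anti-HA libraries, Lyve1 was 5.64 in remission replicate 6, against 22.2 to 31.2 in the other 7, and F13a1 was 26.1 in cure replicate 3, against 81.5 to 90.7 in the other 4. Cbr2 was 267 in relapse replicate 3, against 165 to 180.1 in the others. Mrc1 was 86.9 in initiation replicate 4, against 26.3 to 33.8 in the others, and 39.6 in max replicate 4, against 15.4 to 23.8 in the others.

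In IgG libraries, Pf4 was 11.1 and Cd163 6.92 in cure replicate 5, against at most 1.99 in the others for each. Cbr2 was 24.5 in cure replicate 4, against at most 5.53, and 25.2 in max replicate 2, against at most 14.0. Cd163 was 24.5 in max replicate 4, against at most 11.6. Among the non-immunized IgG libraries Lyve1 was 8.14 in replicate 6, against at most 1.90, and F13a1 was 8.91 in replicate 3, against at most 4.88. In inputs, Lyve1 was 5.95 in initiation replicate 4, against at most 1.57, and 3.39 in cure replicate 5, against at most 1.25. Cd163 was 16.3 in remission replicate 5, against at most 7.57.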

How the results depend on the processing

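The falls of Pf4 at all 5 stages, of Lyve1 from max on and of Folr2 and Cbr2 from remission on kept their direction and call under both pseudocounts, both scalings, both edgeR fits, the filter on low means and a spread shared over all libraries; the calls at cure and that of Cbr2 at relapse were lost with the library side as a term. Quantile normalization shifted the fold changes of all genes by a median of -1.17 log2 at initiation and -1.10 at max, and TMM factors by -1.08 and -1.07. Calls over all genes at initiation were then 199 higher and 173 lower and 237 and 167, against 533 and 116 as deposited, and at max 208 and 188 and 216 and 186, against 512 and 123; at remission they were 174 and 194 and 195 and 173, against 445 and 110. At cure they were 151 and 162 under quantile normalization, against 175 and 122, and at relapse 146 and 161 and, with TMM factors, 173 and 154, against 220 and 107. With the deposited size factors, edgeR on recovered reads called 537 and 114 at initiation and 514 and 122 at max. Both scalings were computed on genes chosen for change, and the cause of the differences was not tested.

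Members called higher in anti-HA at initiation numbered 0 under quantile normalization, TMM factors and a spread shared over all libraries, and at max 0, 0 and 1. Members lower at initiation were 5 under quantile normalization and TMM factors, and 2 with a pseudocount of 10, only genes with a mean of at least 10, edgeR with deposited size factors and the replicate block. Members lower at max were 3 with the spread shared over all libraries. At remission they were 7 under both scalings, and at cure 0 with the library side as a term. Leaving out a library gave 1 to 2 members higher and 1 to 2 lower at initiation, and 1 to 2 higher and 3 to 5 lower at max.

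Between stages, the 1 rise became 2 with TMM factors and 0 with the library side as a term, and the 7 falls became 3, 3 and 1 under quantile normalization, TMM factors and the side term. In inputs, 1 gene and stage pair was higher under quantile normalization and 3 with TMM factors, and 8 and 1 lower. From initiation to relapse, quantile normalization called 131, 165, 120, 76 and 81 of all 716 genes higher in inputs and 207, 315, 163, 67 and 77 lower. With TMM factors 191, 237, 162, 129 and 125 were higher and 102, 179, 101, 45 and 48 lower. In IgG, 2 pairs were higher under quantile normalization, the filter on means and TMM factors. There 7 pairs were lower under quantile normalization, and 0 with a pseudocount of 10, the filter, edgeR with deposited size factors or the side term. Over all 716 genes, quantile normalization called 111, 153, 76, 29 and 40 higher in IgG from initiation to relapse, and 119, 229, 44, 20 and 29 lower. The anti-HA excess over input was smaller in 9 pairs with a pseudocount of 0.1. That over IgG was smaller in 5 with a pseudocount of 0.1, 25 with a pseudocount of 10 and 14 with the replicate block.

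Signs turned for Cd163 at initiation (-0.14 under quantile normalization, -0.36 with TMM factors) and max (-0.11, -0.21), for F13a1 at initiation (-0.0314, -0.16) and max (-0.21, -0.33), and for Mrc1 at relapse (-0.23, -0.22; -0.0525 with the replicate block and -0.80 with the side term). Cd163 at relapse was 0.10 with the side term. Mrc1 ranged from -0.26 to 0.29 at cure and from -0.0225 to 0.23 at relapse when single libraries were left out. Cbr2 in max inputs was -0.18 under quantile normalization. Mrc1 over input at max was -0.17 and -0.0492 under quantile normalization and TMM factors; over IgG it was -0.84 and -0.54 at initiation and -0.66 and -0.65 at max. The ratios to Pf4, with alternatives chosen after seeing the data, gave 10 to 18 calls.

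Same-numbered anti-HA and input libraries of a stage deviated together in 29 of 33 pairs (median r 0.23, over 0.1), anti-HA and IgG in 28 of 33 (0.20), and anti-HA libraries of different stages in 26 of 69 (0.011). The labels do not say that a number marks the same brain and some pairs were at 0.1 or below, so the replicate block is an alternative here. The main fits of anti-HA against input or IgG therefore took same-numbered libraries as independent, although most such pairs deviated together. The replicate block also called Folr2 at initiation (-0.92) and Mrc1 at remission (-0.83). It no longer called F13a1 at remission over max or Cd163 in IgG at initiation.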
